A study of Gallus gallus with 20 samples.

Results

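The genes described here build and run the mitotic spindle, the kinetochore and the cytokinetic furrow. The list holds 44 gene symbols, picked by their known function and with earlier results of these data in view. Of these, 40 were in the gene table and all 40 had enough counts to be tested, among 14524 tested genes of 30108 listed. SPC24, AURKB, KIF4A and PTTG1 were not matched by symbol and were not analysed under those names. RefSeq gives KIF4A and PTTG1 as synonyms of KIF4B and PTTG2, which the table does hold under those symbols and which are given separately. The row named AURKA could not be placed, since RefSeq holds AURKB and no AURKA, so which of these kinases that row measures is uncertain.

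The study compared primary myoblasts, the muscle satellite cells (MuSCs) grown from the pectoralis muscle of Ross-308 broilers aged 36 days, between birds with and without wooden breast, a myopathy that makes the breast muscle firm. RNA was taken from cells expanded in culture, with 9 affected and 11 non-affected libraries and no other treatment. Birds are described as male in the series text. In 4 cases a pair of libraries of 1 group shares a bird number and differs by the suffix B, whose meaning the labels do not give, so the 20 libraries carry 16 bird numbers and those pairs may not be independent birds.

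Before division, chromosomes are condensed and each sister chromatid assembles a kinetochore on its centromere, which captures spindle microtubules. The spindle checkpoint holds the cell until every kinetochore is attached, after which separase cuts cohesin, the chromatids part and a contractile ring divides the cell. Most of these genes are transcribed late in the cell cycle, so their RNA is abundant in dividing cells and scarce in resting ones, and satellite cells must divide to supply new muscle nuclei. In bulk RNA, fewer dividing cells and less of these transcripts per dividing cell cannot be told apart.

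Libraries held 15632148 to 26541170 counts in affected and 15425134 to 28113851 in non-affected libraries (two-sided exact permutation test over 167960 splits, p = 0.527). The W-linked gene HINTW, which only female birds carry, goes against the label of male birds. It had over 100 counts in 9 non-affected libraries and in A76, and 9 counts or fewer in the other 8 affected libraries and in NA61 and NA61B. A76 had 876 HINTW counts and A76B, which carries the same bird number, had 0, where a count of 0 allows up to 3. Results are therefore given with and without A76, NA61 and NA61B where they move. With all of them left out, HINTW counts split exactly by group, so that run cannot tell group from HINTW. The myoblast list of 10 genes, all detected, summed to 407.5 to 706.8 CPM (counts divided by the TMM-scaled library total) in affected and 639.6 to 3119 CPM in non-affected libraries. MYOD1, MYF5, CDH15, NCAM1 and DES of that list fell in affected cells (edgeR adjusted p of 0.05 or less), where 2.91% of all tested genes were called lower. PAX7, PAX3, CDH2 and SDC4 were below 0 without passing, SDC4 at a log2 fold change of -0.10. ITGA7 went the other way, at 0.73 (edgeR adjusted p = 0.24).

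All 40 members had a lower median in affected than in non-affected libraries, and all 40 fitted log2 fold changes (affected over non-affected) were below 0, against 51.4% of all tested genes. Their median was -0.68, against -0.01 over all tested genes, and 30 members lay between -0.9 and -0.6. Members largely rose and fell together across libraries, so the 40 directions are not independent results. No member passed the test. With edgeR, 0 of 40 members had an adjusted p of 0.05 or less in either direction, where 2.91% of all tested genes were called lower and 3.33% higher. At an unadjusted p under 0.05, 7 members were lower (NUF2, SPC25, ASPM, NCAPH2, RACGAP1, ANLN and ESPL1) and 0 higher, against 11.6% and 12.4% of all tested genes. DESeq2 also called 0 members, against 4.07% of its tested genes called lower, and 13 members were lower before adjustment (p under 0.05), against 11.3%.

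The count of calls moved with A73 and with the method, and the count at an unadjusted p under 0.05 moved with many single libraries. Without A73, edgeR called 12 members lower (MAD2L1, NUF2, SPC25, INCENP, BIRC5, AURKA, PLK1, ASPM, NCAPH, NCAPH2, RACGAP1 and ANLN) against 6.3% of all tested genes, 39 were lower at an unadjusted p under 0.05 against 16%, and the median log2 fold change was -1.03. Without A76, 0 members were called, against 3.38% of all tested genes called lower, and 29 had an unadjusted p under 0.05, against 13.7%. Without NA61B that count was 12, against 12.9%. It was 1 without any 1 of A4, A16, A16B, A72, A76B, A79, A85, NA61, NA64B or NA68, and 0 without NA70, when 9.47% to 11.6% of all tested genes were lower at that level. Limma-voom with sample weights called 29 members lower, against 7.84% of all tested genes. With A76, NA61 and NA61B all left out, 0 members were called against 3.37% of all tested genes, 24 were lower at an unadjusted p under 0.05 against 13.4%, and the median was -0.87. In that run, group and HINTW counts coincide, so its values cannot be assigned to either.

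**Figure D1:**
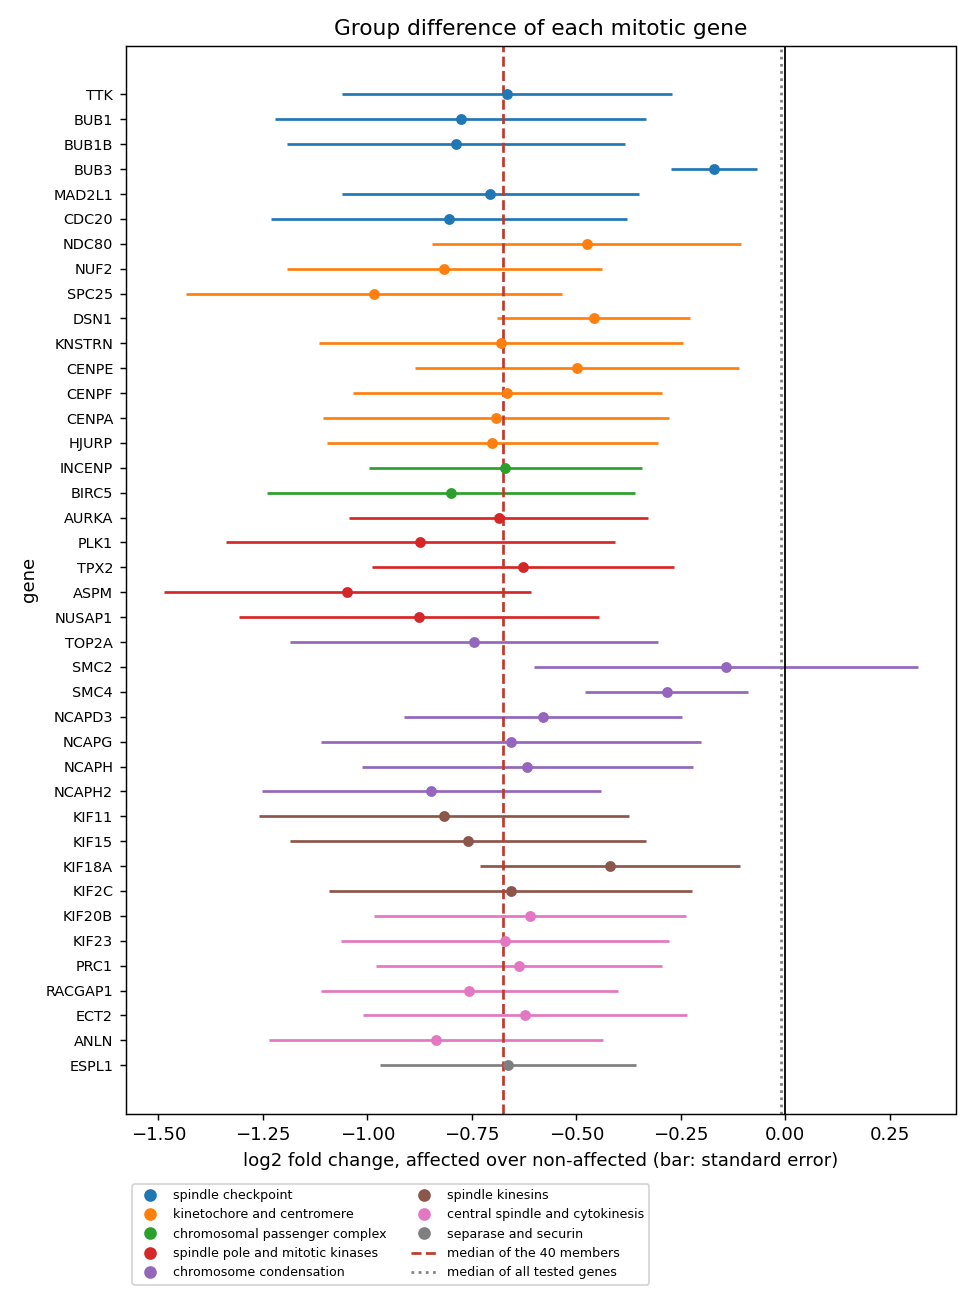
Log2 fold change (affected over non-affected, x axis) of each of the 40 members (y axis, coloured by structure), with bars of 1 standard error, a dashed line at the members' median of -0.68 and a dotted line at the median of all tested genes of -0.01. Every point lies left of 0, from ASPM at -1.05 to SMC2 at -0.14, and only the bar of SMC2 crosses 0.

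The affected libraries did not form 1 level. In 36 of the 40 members, A73 and A76 were at or above the non-affected median and the other 7 affected libraries were below it. The exceptions were BUB3, where A16 and A73 were at or above it, SMC2 (A73, A76, A76B and A79), SMC4 (A73, A76 and A76B) and KIF18A (A73, A76 and A79). A library's level is given as the median over members of its log2 deviation from the mean of the 20 libraries, computed as log2(CPM + 0.5). It was -2.05 in A72, -2.04 in A16B, -1.44 in A85, -0.96 in A4, -0.36 in A16, -0.28 in A76B, -0.07 in A79, 0.86 in A76 and 1.30 in A73. In non-affected libraries it ran from -0.26 in NA61B over a median of 0.27 in NA62 to 1.18 in NA61. A73 was thus the highest and A72 the lowest of all 20 libraries, and both are affected.

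Summed over the 40 members, RNA came to 480 CPM in A72 and 4114 CPM in A73, an 8.57-fold range within the affected group, with a median of 1373 CPM. The non-affected sums ran from 1487 CPM in NA61B to 3875 CPM in NA61, with a median of 2071 CPM. For all 40 members the group ranges overlapped. The lowest of the 20 libraries was an affected one for every member, being A72 for 21, A16B for 16, A4 for 2 and A85 for 1. The highest was A73 for 15 members, NA64B for 11, NA68 for 8, NA61 for 4 and NA70 for 2.

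**Figure D2:**
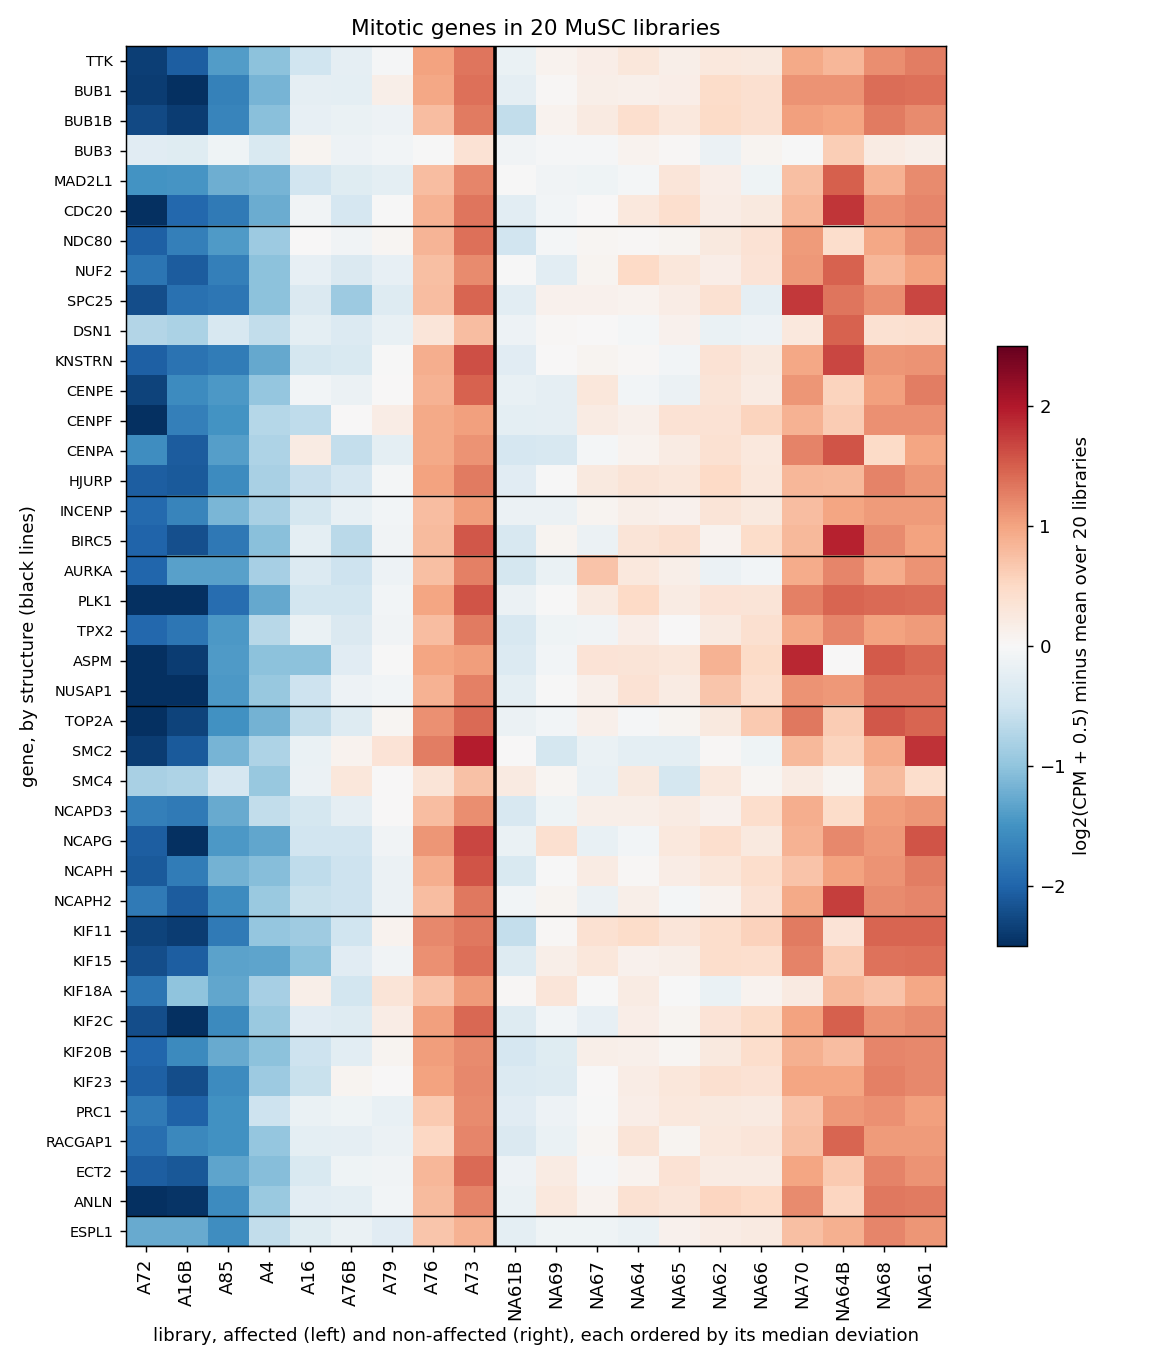
Log2(CPM + 0.5) minus its mean over the 20 libraries (colour) for the 40 members (rows, in blocks by structure) in the 9 affected (left) and 11 non-affected libraries (right), each group ordered by its median deviation. A72 and A16B are the darkest blue columns and A73 is red, BUB3 is the palest row, and the NA64B column is uneven, from 0.01 for ASPM to 1.93 for BIRC5.

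The spread between libraries was wider in the affected group. The SD of log2(CPM + 0.5) was larger in affected than in non-affected libraries for 40 of 40 members, with medians of 1.22 and 0.564, whereas this held for 38.4% of all tested genes, with medians of 0.324 and 0.371. The count was 38 without A73, 39 without A76, NA61 and NA61B, and 36 without A73 and A76, where the affected median was 0.829. The fold between the highest and lowest affected library had a median of 13.3 over members, from 1.69 for BUB3 to 22.1 for NCAPG. In non-affected libraries that median was 3.18, from 1.69 for BUB3 to 5.14 for BIRC5.

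**Figure D3:**
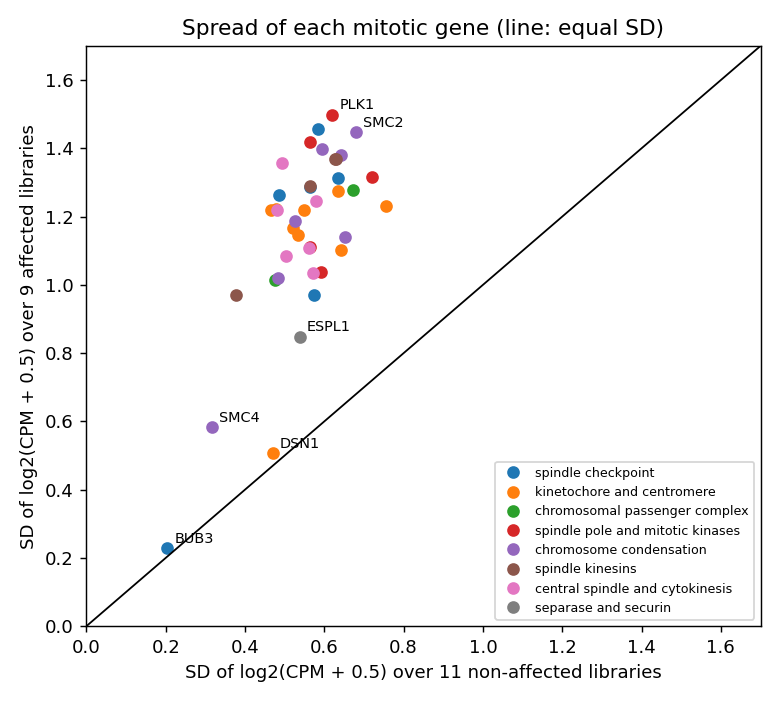
SD of log2(CPM + 0.5) over the 9 affected libraries (y axis) against the SD over the 11 non-affected libraries (x axis), 1 point a member, coloured by structure, with a line of equal SD. All 40 points lie above the line, BUB3 and DSN1 close to it and PLK1 highest at 1.499 in affected against 0.621 in non-affected libraries.

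Spindle checkpoint genes keep the anaphase-promoting complex inactive until chromosomes are attached. TTK and BUB1 are kinases of the checkpoint, BUB1B and MAD2L1 are parts of its inhibitory complex, BUB3 carries the BUB kinases to the kinetochore, and CDC20 is the activator that the complex holds back. All 6 had log2 fold changes below 0, with a median of -0.74. MAD2L1 had 5.78 to 40.4 CPM in affected libraries (median 12.1) and 15.9 to 49.2 CPM in non-affected libraries (median 19.4), a log2 fold change of -0.71 ± 0.36 (SE, edgeR adjusted p = 0.228). BUB1B had 4.18 to 59.1 CPM in affected libraries (median 20.6) and 15.2 to 59.1 CPM in non-affected libraries (median 32.0), a log2 fold change of -0.79 ± 0.40 (SE, edgeR adjusted p = 0.237). Both groups reached the same top level of BUB1B, in A73 and in NA68, while A16B was lowest. BUB3 had 95.1 to 160.7 CPM in affected libraries (median 115.3) and 113.0 to 190.8 CPM in non-affected libraries (median 126.9), a log2 fold change of -0.17 ± 0.10 (SE, edgeR adjusted p = 0.312). It was the most even member in both groups. TTK, BUB1 and CDC20 had log2 fold changes of -0.67, -0.78 and -0.81.

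The kinetochore members include NDC80, NUF2 and SPC25, subunits of the complex that grips microtubules, DSN1 of the MIS12 complex on which it is anchored, CENPA, the histone variant that marks centromeres, and HJURP, its chaperone. CENPE is a kinesin that moves chromosomes to the spindle equator, CENPF binds microtubules, and KNSTRN is a kinetochore and spindle protein. All 9 were below 0, with a median of -0.68. SPC25 had 4.27 to 60.6 CPM in affected libraries (median 11.3) and 17.8 to 74.6 CPM in non-affected libraries (median 24.5), a log2 fold change of -0.98 ± 0.45 (SE, edgeR adjusted p = 0.186). NUF2 had 5.29 to 55.7 CPM in affected libraries (median 18.6) and 20.1 to 68.01 CPM in non-affected libraries (median 30.9), a log2 fold change of -0.82 ± 0.38 (SE, edgeR adjusted p = 0.191). These had the smallest p of the group, yet A73 stood above the non-affected median for each. DSN1 had 12.1 to 37.0 CPM in affected libraries (median 16.7) and 19.1 to 60.7 CPM in non-affected libraries (median 21.8), a log2 fold change of -0.46 ± 0.23 (SE, edgeR adjusted p = 0.228). Its fold between extreme libraries was 3.06 in affected and 3.18 in non-affected libraries, so it varied far less among affected libraries than NUF2 or SPC25. The other 6 lay between -0.70 for HJURP and -0.48 for NDC80.

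Of the chromosomal passenger complex, which corrects faulty attachments and later moves to the cell middle, INCENP (the scaffold) and BIRC5 (survivin, which docks it on chromatin) were measured. INCENP had 11.8 to 97.2 CPM in affected libraries (median 34.3) and 42.2 to 98.9 CPM in non-affected libraries (median 55.7), a log2 fold change of -0.67 ± 0.33 (SE, edgeR adjusted p = 0.215). BIRC5 had 4.87 to 71.5 CPM in affected libraries (median 14.8) and 18.1 to 92.9 CPM in non-affected libraries (median 32.0), a log2 fold change of -0.80 ± 0.44 (SE, edgeR adjusted p = 0.270). The complex's kinase AURKB was not matched by symbol, and whether the row named AURKA measures it is uncertain.

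Among spindle pole genes and mitotic kinases, ASPM focuses microtubules at the poles, TPX2 nucleates them near chromosomes, NUSAP1 bundles them, and PLK1 and AURKA are kinases of mitotic entry and spindle assembly. Their median log2 fold change, -0.87 over 5 genes, was the lowest of the structures. ASPM, on chromosome 8 (GRCg7b, 2611475 to 2643322), had 6.37 to 88.2 CPM in affected libraries (median 20.5) and 33.5 to 157.8 CPM in non-affected libraries (median 54.2). Its log2 fold change of -1.05 ± 0.44 (SE, edgeR adjusted p = 0.150) was the lowest of the 40. NUSAP1 had 2.76 to 54.2 CPM in affected libraries (median 15.3) and 18.7 to 57.9 CPM in non-affected libraries (median 30.0), a log2 fold change of -0.88 ± 0.43 (SE, edgeR adjusted p = 0.218). A16B was the lowest library for NUSAP1 and A72 for ASPM. TPX2 had 23.7 to 230.3 CPM in affected libraries (median 72.3) and 70.6 to 217.6 CPM in non-affected libraries (median 109.4), a log2 fold change of -0.63 ± 0.36 (SE, edgeR adjusted p = 0.293). PLK1 and the row named AURKA, whose kinase is uncertain, had log2 fold changes of -0.87 and -0.69.

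Chromosome condensation is the work of the condensins, in which SMC2 and SMC4 form the shared core, NCAPG and NCAPH belong to condensin I and NCAPD3 and NCAPH2 to condensin II, together with TOP2A, the topoisomerase that untangles sister DNA. All 7 were below 0, with a median of -0.62. NCAPH2 had 4.64 to 54.0 CPM in affected libraries (median 14.3) and 19.2 to 71.5 CPM in non-affected libraries (median 23.7), a log2 fold change of -0.85 ± 0.41 (SE, edgeR adjusted p = 0.205). NCAPD3 had 8.63 to 68.5 CPM in affected libraries (median 22.3) and 22.9 to 65.9 CPM in non-affected libraries (median 34.9), a log2 fold change of -0.58 ± 0.33 (SE, edgeR adjusted p = 0.290). SMC2 had 15.7 to 330.3 CPM in affected libraries (median 74.5) and 61.98 to 292.9 CPM in non-affected libraries (median 84.3), a log2 fold change of -0.14 ± 0.46 (SE, edgeR adjusted p = 0.875). The core subunits differed in range: across affected libraries SMC2 spanned 21.0-fold and SMC4 3.19-fold. TOP2A, NCAPG, NCAPH and SMC4 had log2 fold changes of -0.75, -0.66, -0.62 and -0.28.

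SMC2 is the 1 member placed on a sex chromosome, Z (GRCg7b, 67153026 to 67177187), of which male birds carry a pair and females a single copy. Relative to the median of all members in the same library, SMC2 was higher in 8 of 10 libraries with 100 HINTW counts or fewer, the exceptions being A72 at -0.33 and A16B at -0.07 on the log2 scale. It was higher in 1 of 10 libraries with over 100 HINTW counts, A76 at 0.41, and the other 9 lay between -0.44 and -0.14. The part of sex-chromosome dosage in the group value of SMC2 was not tested.

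**Figure D4:**
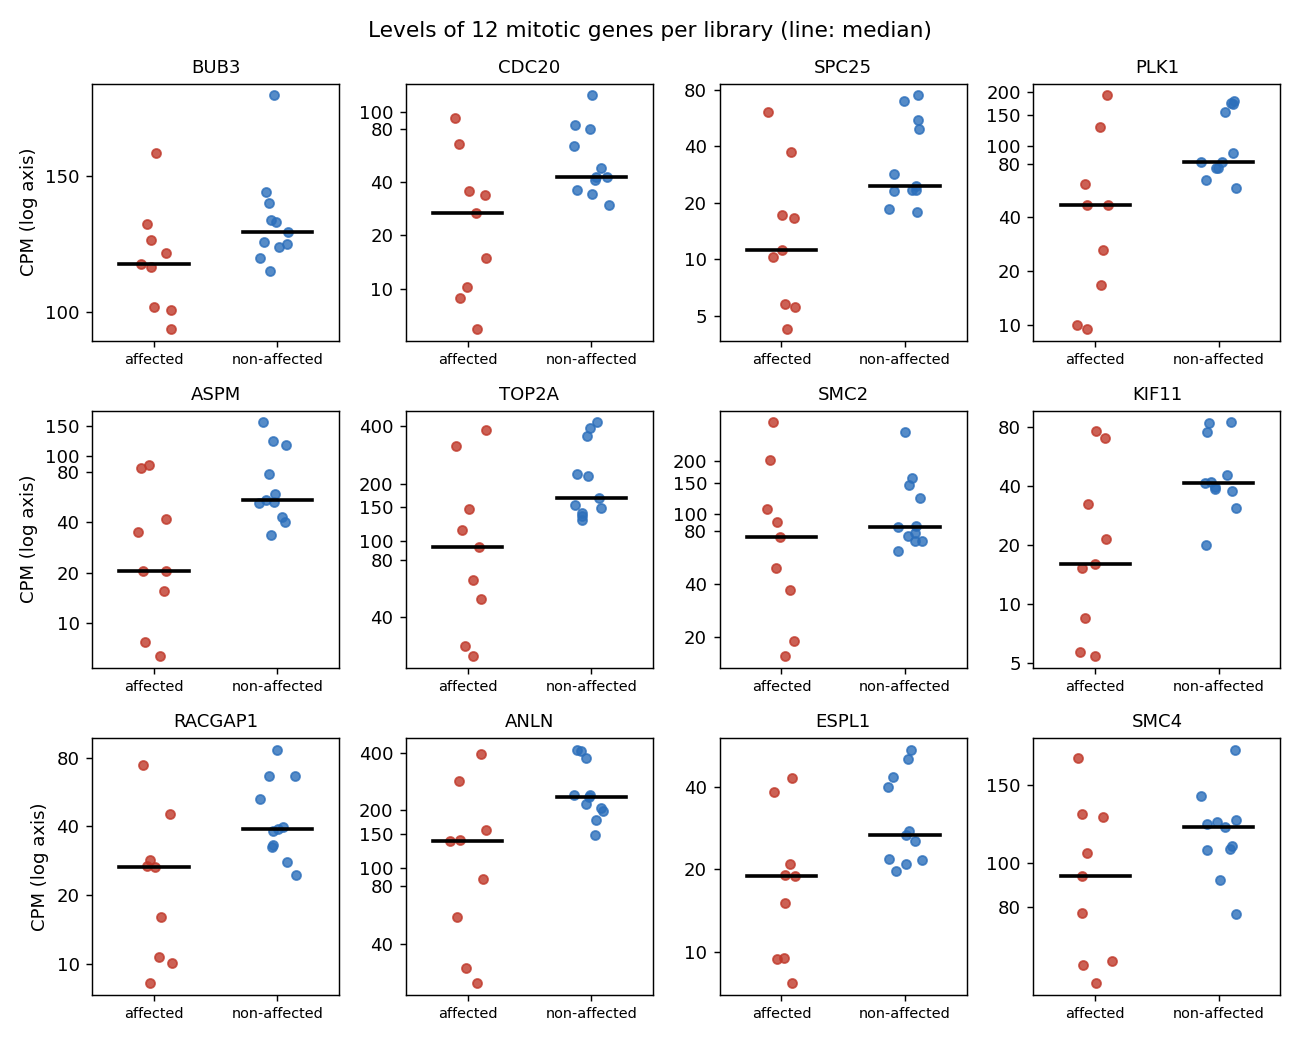
CPM (log axis) of 12 members in the affected (left, red) and non-affected libraries (right, blue), 1 point a library, with a line at the group median. The groups overlap in every panel, and 2 affected points, A73 and A76, lie among the highest in most panels, as in ASPM, ANLN and ESPL1.

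The spindle kinesins slide and shorten microtubules. KIF11 and KIF15 push the poles apart, KIF18A damps chromosome movements and KIF2C takes microtubules apart at faulty attachments. KIF11 had 5.41 to 75.5 CPM in affected libraries (median 15.98) and 19.9 to 83.9 CPM in non-affected libraries (median 41.0), a log2 fold change of -0.82 ± 0.44 (SE, edgeR adjusted p = 0.264). KIF15 had 3.88 to 52.3 CPM in affected libraries (median 9.37) and 15.6 to 52.0 CPM in non-affected libraries (median 26.5), a log2 fold change of -0.76 ± 0.43 (SE, edgeR adjusted p = 0.281). For both, 7 affected libraries were below the non-affected median. KIF18A had 3.29 to 27.6 CPM in affected libraries (median 9.28) and 11.4 to 25.8 CPM in non-affected libraries (median 14.9), a log2 fold change of -0.42 ± 0.31 (SE, edgeR adjusted p = 0.413). KIF2C had a log2 fold change of -0.66, and KIF4B, the row that RefSeq ties to the absent KIF4A, had -0.71 (edgeR adjusted p = 0.241).

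Central spindle and cytokinesis genes act last. PRC1 bundles the midzone microtubules, KIF23 and RACGAP1 form centralspindlin, ECT2 switches on RhoA at the furrow, ANLN (anillin) organises the contractile ring, and KIF20B acts in the final separation. All 6 were below 0, with a median of -0.65. ANLN had 24.8 to 393.3 CPM in affected libraries (median 138.6) and 148.6 to 416.2 CPM in non-affected libraries (median 235.2), a log2 fold change of -0.84 ± 0.40 (SE, edgeR adjusted p = 0.205). RACGAP1 had 8.21 to 74.2 CPM in affected libraries (median 26.7) and 24.4 to 86.9 CPM in non-affected libraries (median 39.1), a log2 fold change of -0.76 ± 0.36 (SE, edgeR adjusted p = 0.198). NA61B was the lowest non-affected library for both. KIF20B had 4.40 to 43.5 CPM in affected libraries (median 13.2) and 14.1 to 44.7 CPM in non-affected libraries (median 22.7), a log2 fold change of -0.61 ± 0.37 (SE, edgeR adjusted p = 0.321). KIF23, PRC1 and ECT2 had log2 fold changes of -0.67, -0.64 and -0.62.

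ESPL1 encodes separase, the protease that opens cohesin at anaphase. It had 7.67 to 43.3 CPM in affected libraries (median 18.9) and 19.7 to 54.9 CPM in non-affected libraries (median 26.7), a log2 fold change of -0.66 ± 0.31 (SE, edgeR adjusted p = 0.191). PTTG2, the row that RefSeq ties to the absent securin PTTG1, had a log2 fold change of -0.84 (edgeR adjusted p = 0.192). A85 was the lowest library for ESPL1, unlike the other members.

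Libraries that share a bird number differed in these genes. The fitted median of -0.68 is on another scale, so pairs were compared with the group difference in mean log2(CPM + 0.5), as a median over members. The median pair difference was larger in size than that group difference for the pairs of A16, A76 and NA61, and smaller for that of NA64. A76 had 876 HINTW counts and A76B had 0, so whether that pair came from the same bird is uncertain. A16B was lower than A16 in 40 of 40 members, by a median of -1.52 on the log2 scale. A76B was lower than A76 in 40 of 40 (median -1.17), and NA61B was lower than NA61 in 40 of 40 (median -1.47). NA64B ran the other way and was higher than NA64 in 37 of 40 (median 0.82), the exceptions being ASPM, SMC4 and KIF11. Over all tested genes the medians of these differences were between -0.01 and 0.02, where TMM scaling tends to place them. The SD of the differences over all tested genes ran from 0.52 in the pair of A16 to 0.83 in that of NA64. With the suffix B libraries left out, 39 members were below 0 and 1 passed an unadjusted p of 0.05 in edgeR, against 9.2% of all tested genes, as did 1 with shared bird numbers summed, against 10.2%.

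**Figure D5:**
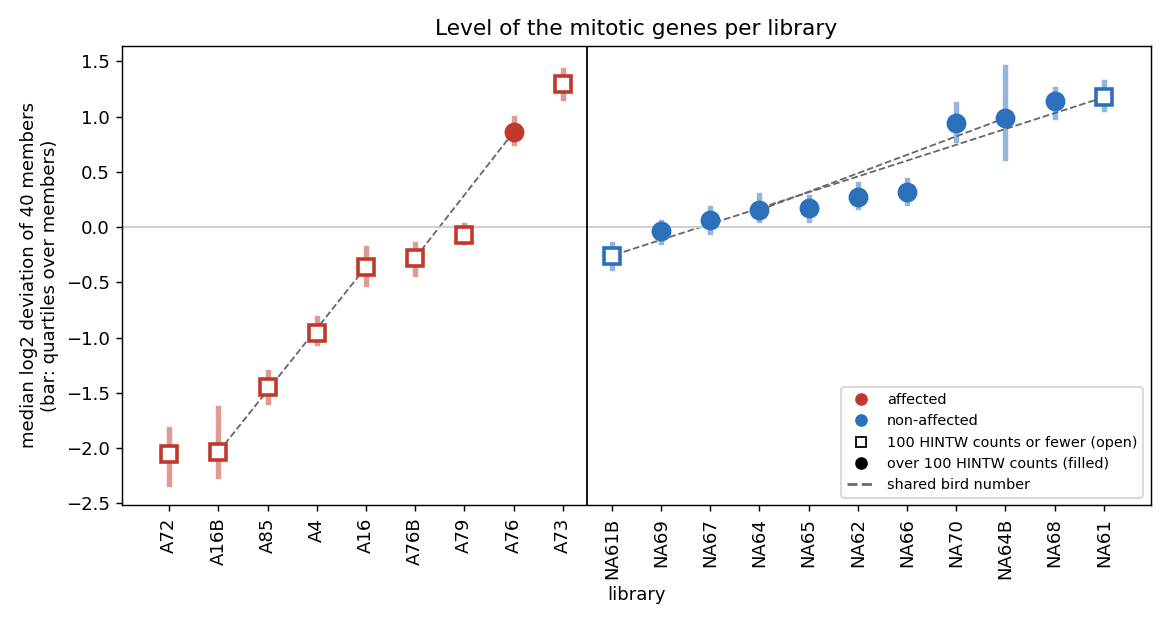
Median log2 deviation of the 40 members per library (y axis, with bars from the lower to the upper quartile over members) for affected (red, left) and non-affected libraries (blue, right), open squares for 100 HINTW counts or fewer and filled circles for more, with dashed lines joining libraries of 1 bird number. Affected libraries run from -2.05 in A72 to 1.30 in A73 and non-affected ones from -0.26 in NA61B to 1.18 in NA61.

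HINTW classes follow the groups closely, so group and class can hardly be told apart. Within the class of 100 counts or fewer, the mean log2 level of the 8 affected libraries was below that of NA61 and NA61B in 40 of 40 members, with a median difference of -1.19. NA61 and NA61B share a bird number and had the highest and lowest non-affected median deviations, 1.18 and -0.26. A73, at 1.30, was above both, and A79, at -0.07, was above NA61B. In the class above 100 counts, A76 was below the mean log2 level of the 9 non-affected libraries in 1 of 40 members, BUB3, and the median difference was 0.40. With log2(HINTW CPM + 1) as a term in edgeR, the members' median was -0.43 and 0 had an unadjusted p under 0.05, when 3.29% of all tested genes were lower at that level.

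Other genes of division lay in the same direction. Of 71 further mitotic genes listed, 57 were tested, 56 were below 0 (CDC27, of the anaphase-promoting complex, was at 0.03), and their median was -0.56. With edgeR, 0 passed in either direction, where 2.91% of all tested genes were called lower and 3.33% higher. At an unadjusted p under 0.05, 12 of the 57 were lower, against 11.6% of all tested genes. Of 48 DNA replication genes, 46 were tested, 44 were below 0, and their median was -0.59. Of these, 0 passed in edgeR, but 21 of the 46 were lower at an unadjusted p under 0.05, against the same 11.6% of all tested genes. Across libraries, replication genes ran from a median deviation of -1.11 in A16B to 0.95 in A73 among affected libraries, and from -0.27 in NA61B to 0.90 in NA61 among non-affected libraries.

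Genes of cell cycle arrest were also read in each library. Of 11 tested, 7 had log2 fold changes above 0 and 4 below. With edgeR, 3 were called higher and 1 lower, where 3.33% and 2.91% of all tested genes were called. The rest did not pass, among them CDKN2A at 0.62 (edgeR adjusted p = 0.204) and CDKN1C at -0.46 (edgeR adjusted p = 0.339). MDM2, a target and inhibitor of p53, CDKN1A, the p53 target that blocks cyclin-dependent kinases, and CCNG1, another p53 target, rose in affected cells, by 1.58, 1.40 and 0.66 on the log2 scale (edgeR adjusted p = 0.000732, 0.0145 and 0.0105), and CDKN2C fell by 0.88 (edgeR adjusted p = 0.0432). CDKN1A had 86.9 CPM in A73, 199.3 CPM in A76 and 290.8 to 621.8 CPM in the other 7 affected libraries, against 70.5 to 287.2 CPM in non-affected libraries. The 11 genes of the list summed to 1284 CPM in A73, 1730 CPM in A76 and 2360 to 3077 CPM in the other 7, against 919.8 to 2023 CPM in non-affected libraries. A73 and A76, the affected libraries with the most mitotic RNA, thus had the lowest sums of their group. Not every gene of the list followed the sums. CDKN2C ran the other way, at 57.02 CPM in A73, 42.45 CPM in A76 and 15.3 to 27.71 CPM in the other 7. MDM2 did not follow the order of the sums throughout. It had 284.2 CPM in A73, 451.5 CPM in A76 and 426.1 CPM in A72, the library with the least mitotic RNA. In non-affected libraries MDM2 ran from 125.8 to 305.1 CPM, so A76 was above all of them and A73 within their range.

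Markers of muscle differentiation and macrophages also moved with the groups, whereas endothelial, smooth muscle and fibroblast lists largely did not. The part of all these markers in the values above was not tested. Of 23 muscle differentiation genes, 14 were in the table, 13 were tested and 10 fell in affected cells, where 2.91% of all tested genes were called lower. The differentiation genes summed to 31.4 to 67.3 CPM in affected and 44.5 to 4198 CPM in non-affected libraries, highest in NA70. Of 16 macrophage genes, 14 were in the table, 10 were tested and CSF1R, PTPRC, TREM2 and CYBB rose, where 3.33% of all tested genes were called higher. The sum of the macrophage genes was 79.2 to 249.3 CPM in affected and 58.2 to 129.0 CPM in non-affected libraries, and it was lowest in A73 within the affected group. C1QA was at 0 in 4 affected and 6 non-affected libraries, MARCO in 2 and 5, and TLR4 in 2 and 9. Endothelial genes summed to 47.7 to 108.3 CPM in affected and 27.99 to 167.1 CPM in non-affected libraries. Of 4 tested, 2 were above 0 and 2 below, and 1 (TEK) was called lower, where 2.91% of all tested genes were called lower. TEK was scarce, with medians of 0.37 CPM in affected and 1.0 CPM in non-affected libraries, but reached 92.9 CPM among the non-affected ones. Smooth muscle and fibroblast genes summed to 3191 to 9985 CPM in affected and 2096 to 7754 CPM in non-affected libraries, and 0 of 8 tested passed in edgeR, with 0 at an unadjusted p under 0.05.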

How the data were processed

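The authors deposited estimated counts per gene, made by trimming reads (Trim Galore 0.6.7, cutadapt 3.4), aligning them to GRCg7b with STAR 2.7.9a, quantifying with Salmon 1.10.1 and summarising with tximport. They are not normalized between libraries. The annotation release is not given in the sources used here. The study's methods leave out unnamed non-affected samples and give a larger affected group than the labels do. All 20 labelled samples were used here, so the sample set is not the study's. Counts were rounded, filtered with filterByExpr, scaled by TMM and tested in edgeR (version 4.0.16, under R version 4.3.3) by its quasi-likelihood method with no covariate and Benjamini-Hochberg adjustment over 14524 genes. The SE is the log2 fold change divided by the square root of F, an approximation. Where nothing says that libraries are separate cultures or birds, p-values measure only the spread between them. Gene positions came from RefSeq by symbol. The fit was tested on simulated data. Limma 3.58.1 and DESeq2 1.42.0 were alternatives. The limit of 3 counts at 0 covers counting error only. Members, gene lists and the rule for HINTW were chosen with earlier results of these data known. Full values are given, within each structure, for the 2 members with the smallest p and the 1 with the fold change nearest 0. The SD of log2(CPM + 0.5) and its comparison were added after the data were seen, first with no pseudocount and then with 0.5 to match the values over all genes. Figures were drawn with matplotlib 3.10.9.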

Additional observations from a re-analysis of the deposited data

How the results depend on the processing

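The number of members lower in affected cells at an adjusted p of 0.05 or less was 0 in edgeR (2.91% of all tested genes). It was 29 in limma-voom with sample weights (7.84%), and 0 to 12 when each library was left out in turn (1.66% to 6.3%). At an unadjusted p under 0.05 it was 7, and 14 with total counts only (17.4% of all tested genes), 13 in DESeq2 (11.3%), 38 in limma-voom (15.9%), 1 with bird numbers summed (10.2%), 1 with suffix B libraries left out (9.2%), 0 with a HINTW term (3.29%), 24 without the 3 libraries whose HINTW counts go against their group (13.4%), and 0 to 39 with each library left out. The median log2 fold change of -0.68 was -1.07 in limma-voom, -0.43 with a HINTW term, -0.87 without those 3 libraries, and -1.03 to -0.55 with each library left out. With suffix B libraries left out the median was -0.51, and with bird numbers summed it was -0.65. SMC2 turned to 0.0090 with suffix B libraries left out, and ranged from -0.61 to 0.11 with each library left out (0.0013 without A72 and 0.11 without NA61), so 39 members were then below 0. The cause of these moves was not tested. The larger SD in affected libraries held for 38 to 40 members with each library left out and for 40 with no pseudocount, when the affected and non-affected medians were 1.27 and 0.573, choices made after seeing the data. No paired analysis was possible because the groups share no replicate numbers. No member was called higher under any alternative run. The lowest count of any member was 25, for CENPA in A72.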

Other observations

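NA64B was the library in which the members differed most among themselves. The width between the quartiles of their deviations was 0.822 on the log2 scale, against a median of 0.239 over the 20 libraries. It had the highest value of the 20 for 11 members, among them BUB3, DSN1 and BIRC5, while ASPM, SMC4 and KIF11 were lower there than in NA64.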
